A study of Homo sapiens with 4 samples.

Results

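The genes described here are 3 adenosine receptors (ADORA1, ADORA2A and ADORA2B) and 7 enzymes that make, use or remove adenosine and AMP (ADA, ADK, AMPD2, AMPD3, APRT, ADSL and ATIC). They were chosen by name, by a rule that used no measured value, though earlier results of these data were known. All 10 were found among the 2864 genes with values in the deposited table. RNA was sequenced from 4 cultures of A375, a human melanoma cell line with a mutant BRAF kinase that is labelled wild type in genotype. A375P was the untreated parental line, and A375R was a strain of it made resistant under stepwise higher concentrations of vemurafenib, an inhibitor of BRAF. No vemurafenib concentration is given for the A375R library. A375+DMSO was A375 with 1‰ of the solvent DMSO for 48 h, and A375+VEM was A375 with 2 μM vemurafenib for 48 h. All 4 were grown in DMEM with 10% serum and carry the same batch label. There was 1 library per condition and 1 resistant strain, which the sources used here do not describe as a clone or a pool, so differences between libraries were not tested. A375R against A375P is called the resistant pair, and A375+VEM against A375+DMSO the acute pair.

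Adenosine outside the cell acts on G protein-coupled receptors. The receptor encoded by ADORA1 lowers cAMP, while those of ADORA2A and ADORA2B raise it, and the receptor of ADORA2B needs more adenosine than the others. Inside the cell adenosine is either deaminated to inosine by ADA or phosphorylated to AMP by ADK. AMP is also formed from adenine by APRT and from IMP through ADSL, and it is turned back into IMP by the AMP deaminases AMPD2 and AMPD3. ATIC carries out the final steps of the synthesis of IMP, the purine that precedes both AMP and GMP. Extracellular adenosine is known in tumors as a signal that dampens immune cells.

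Values are given as reads counted per gene and as TPM, a level per length that can be compared between genes and sums to the same total in every library. The deposited genes analysed here, an alphabetical section of the annotation, held 1891215 to 2054277 reads per library, which carried 8.48% to 8.94% of the TPM and is not the depth of a library. A gene was called higher or lower when its ratio of (TPM + 0.1) passed 1.5-fold, a log2 ratio of 0.58, provided that 1 of the 2 libraries or both reached a TPM of 1. Log2 ratios are on this scale, which understates the difference of low genes, and other ratios are of TPM itself with an exact (Clopper-Pearson) 95% interval on the reads. Positions are those of the authors' table, with hg19 the build in the submitters' processing notes. The intervals compare 2 libraries and not 2 conditions, and cover counting error only. In bulk RNA, fewer cells that use a gene and less of its RNA per cell cannot be told apart. Of 6 pigment cell genes at hand, 5 were at a TPM of at least 1 in each library, with a summed TPM from 80.1 to 134, while ABCB5 was near 0 throughout. The sum does not show single genes. In A375R, BCL2A1 was at 4.89 of A375P and APOE at 1.89, while ASAH1 was at 0.490, and BACE2 and BCAN were within 1.5-fold. Set against A375+DMSO, A375R had BCL2A1 at 8.84 and BCAN at 1.80. APOE at 1.24, ASAH1 at 0.981 and BACE2 at 1.17 were then within 1.5-fold.

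Promoter sequences are shown for ADA, which had the highest ratio of the 10 genes in the resistant pair, and for ATIC, which had the largest difference in TPM, though not the largest ratio, in the acute pair. They are the 250 bases before the RefSeq start on GRCh38.p14, which is not the build of the deposited positions, written 5′ to 3′ on the gene's strand. For ATIC the bases are at chr2:215311809-215312058 on the plus strand, and for ADA at chr20:44651700-44651949 on the minus strand. Capitals mark the E-box CACGTG in ATIC and the GC box GGGCGG in ADA, each motif being searched on both strands. In ADA 2 pairs of GC boxes overlap by 1 base each.
ATIC: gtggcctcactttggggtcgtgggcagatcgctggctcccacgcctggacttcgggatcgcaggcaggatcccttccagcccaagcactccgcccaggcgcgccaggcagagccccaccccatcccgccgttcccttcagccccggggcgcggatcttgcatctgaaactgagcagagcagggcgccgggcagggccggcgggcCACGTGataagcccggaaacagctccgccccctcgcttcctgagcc
ADA: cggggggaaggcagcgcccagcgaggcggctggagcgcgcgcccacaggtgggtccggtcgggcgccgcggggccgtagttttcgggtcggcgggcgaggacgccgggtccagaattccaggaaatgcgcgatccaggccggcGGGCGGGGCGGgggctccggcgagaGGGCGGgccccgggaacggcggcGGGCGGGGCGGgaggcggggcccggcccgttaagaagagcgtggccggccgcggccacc
The ATIC promoter held 1 E-box before the start and 1 more that reached past it. Of 35116 human promoters, taken as 250 bases before and 50 after the start, 7.26% held CACGTG. The ADA promoter held 5 GC boxes, all before the start, and 45.0% of the promoters held at least 1. A GC box was in 11 of the 15 promoters of the genes studied here, with 2 in ATIC (not in capitals). Among these 15 promoters, of the 8 genes with an entry, the only other match to CACGTG was in 1 of the 4 promoters of AMPD2. ADORA2A and ADSL had no entry. A match describes letters in a window and no binding was measured.

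The levels of the 10 genes spanned from a TPM of 0.38 for AMPD3 in A375+VEM to 244 for ATIC in A375P. APRT, ADSL and ATIC, the salvage and synthesis enzymes, were the 3 highest of the 10 in each library. In A375P the order was led by ATIC, followed by APRT at 202 TPM and ADSL at 80.7 TPM. In A375R and A375+DMSO the order was APRT, ATIC, ADSL, and in A375+VEM it was APRT, ADSL, ATIC. ADORA2B, ADA, ADK and AMPD2 lay between 11.2 and 49.2 TPM, and ADORA1, ADORA2A and AMPD3 were the 3 lowest in each library. Neighbours in this order whose levels did not differ beyond counting error were ADK and AMPD2 in A375P and in A375R, AMPD2 with ADA and AMPD3 with ADORA2A in A375+DMSO, and ADA with ADORA2B in A375+VEM.

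**Figure D1:**
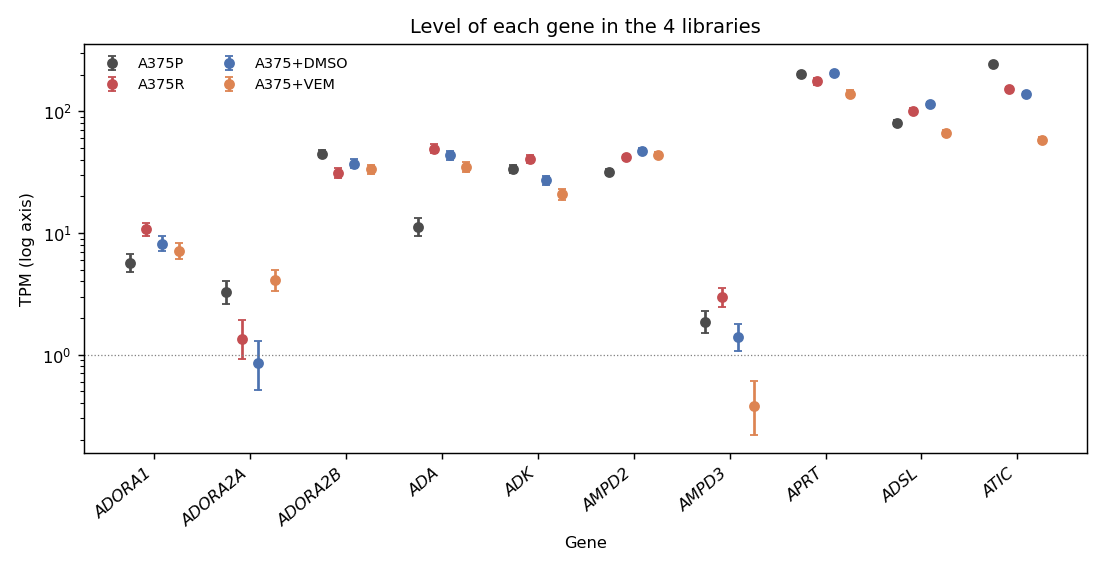
TPM (log axis) of each of the 10 genes in the 4 libraries, with exact Poisson 95% intervals on the reads and a dotted line at a TPM of 1. ATIC goes from 244 in A375P to 58.1 in A375+VEM, ADA is low only in A375P at 11.2, and AMPD3 is lowest in A375+VEM at 0.38.

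ADORA2B was the main adenosine receptor transcript in each library. Chromosome 17 holds ADORA2B at 15848231 to 15879210 (plus strand). For ADORA2B the parental line had 726 reads (44.9 TPM), the resistant strain 456 (31.2 TPM), the DMSO culture 559 (37.1 TPM) and the acute vemurafenib culture 501 (33.5 TPM). It made up 72.1% to 83.4% of the summed receptor TPM, and no pair of libraries was past 1.5-fold. The widest ratio was that of A375R to A375P at 0.695 (95% interval 0.617 to 0.783), which passed the limit under both other scalings tried, to a median ratio of 1 (log2 ratio -0.62) and by TMM (-0.60). ADORA3, the receptor outside the chosen 10, had 1 to 3 reads per library. ADORA2BP1, a pseudogene copy of ADORA2B, had 0 to 2.

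Chromosome 1 holds ADORA1 at 203096836 to 203136533 (plus strand). For ADORA1 the parental line had 142 reads (5.68 TPM), the resistant strain 242 (10.7 TPM), the DMSO culture 191 (8.18 TPM) and the acute vemurafenib culture 166 (7.16 TPM). A375R was the highest of the 4 and A375P the lowest. A375R was at 1.89 of A375P (95% interval 1.53 to 2.34) and at 1.31 of A375+DMSO (95% interval 1.08 to 1.59), the latter within the 1.5-fold limit. A375+DMSO was itself at 1.44 of A375P (95% interval 1.15 to 1.80). The share of ADORA1 in the summed receptor TPM was 10.5% in A375P, 16.0% in A375+VEM, 17.7% in A375+DMSO and 24.7% in A375R.

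ADORA2A was the receptor with the widest range. Chromosome 22 holds ADORA2A at 24819565 to 24838328 (plus strand). For ADORA2A the parental line had 83 reads (3.28 TPM), the resistant strain 31 (1.35 TPM), the DMSO culture 20 (0.85 TPM) and the acute vemurafenib culture 96 (4.09 TPM). A375P and A375+VEM were high and A375R and A375+DMSO low, so the libraries did not split by the drug. A375+VEM was 4.83-fold higher than A375+DMSO (95% interval 2.96 to 8.26), a log2 ratio of 2.15 that was larger than that of 96.7% of the 1784 genes compared. Against A375P the ratio in A375+VEM was 1.25 (95% interval 0.921 to 1.70), an interval that includes no difference. A375R was at 0.413 of A375P (95% interval 0.264 to 0.632) but at 1.60 of A375+DMSO (95% interval 0.884 to 2.96), the other direction, where a difference was not detectable at this depth and the log2 ratio was within the limit with a pseudocount of 1 (0.35).

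The lncRNA ADORA2A-AS1 lies on the other strand, from 24825174 to 24891042, and overlaps ADORA2A by 13155 bases. Its reads were 49 in A375+VEM, 37 in A375P, 10 in A375R and 4 in A375+DMSO, the same order of libraries as ADORA2A. Whether counting used strand is not given in the sources used here, so reads from sequence shared by this pair of genes cannot be told apart. The overlap is one of gene spans, and that of exons was not examined. The 8 immune cell genes at hand had a summed TPM of 6.65 in A375+VEM, 1.66 in A375+DMSO, 1.47 in A375R and 0.58 in A375P, the first mostly from ARHGAP15 at 3.87 TPM in A375+VEM. AOAH had 26 reads in A375+VEM and 2 to 5 in the others, and ALOX5AP, BANK1, BLNK and BTK also had their most reads there (4 to 9). AIF1, a macrophage gene, had 0 reads in A375+VEM and 1 in each other library, and BLK had 1 in A375+VEM and 8 in A375R. Of the 8 genes, 4 were at 0 reads in A375P, 1 in A375+VEM and 0 in the other libraries. The 6 endothelial genes summed to between 3.70 TPM in A375P and 13.2 TPM in A375+VEM, mostly APOLD1, while epithelial genes summed to at most 0.69 TPM and ADIPOQ, an adipocyte gene, to 0.025 TPM. All 4 cultures were of the A375 line, and whether the reads of these genes bear on the level of ADORA2A was not tested.

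**Figure D2:**
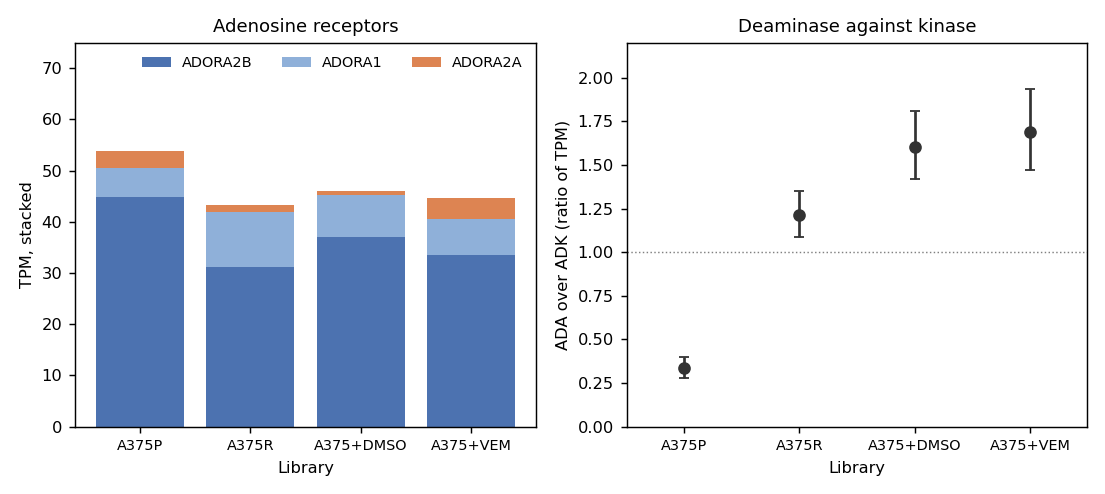
Left, stacked TPM of the 3 adenosine receptors in each library. Right, the ratio of the TPM of ADA to that of ADK with its exact 95% interval, 0.334 in A375P and between 1.21 and 1.69 in the other 3 libraries.

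Of the enzymes of adenosine itself, ADA was low in a single library. Chromosome 20 holds ADA at 43248160 to 43280399 (minus strand). For ADA the parental line had 150 reads (11.2 TPM), the resistant strain 594 (49.2 TPM), the DMSO culture 541 (43.4 TPM) and the acute vemurafenib culture 433 (35.0 TPM). A375R was 4.38-fold higher than A375P (95% interval 3.66 to 5.28), with a larger log2 ratio than that of 96.4% of 1689 genes. A375+DMSO, which had no vemurafenib, was also 3.87-fold higher than A375P (95% interval 3.22 to 4.66). Set against A375+DMSO, ADA was at 1.13 in A375R (95% interval 1.01 to 1.28) and 0.806 in A375+VEM (95% interval 0.709 to 0.916), both within 1.5-fold.

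Chromosome 10 holds ADK at 75910943 to 76469061 (plus strand). For ADK the parental line had 704 reads (33.7 TPM), the resistant strain 766 (40.6 TPM), the DMSO culture 529 (27.1 TPM) and the acute vemurafenib culture 402 (20.8 TPM). It was highest in A375R and lowest in A375+VEM. A375R against A375+DMSO had a log2 ratio of 0.579, just within the limit of 0.585, and A375R was at 1.20 of A375P (95% interval 1.09 to 1.34). A375+VEM was at 0.765 of A375+DMSO (95% interval 0.671 to 0.873) and at 0.616 of A375P (95% interval 0.544 to 0.698). AP3M1, head to head with ADK on the other strand, with 99 bases between them, was at 0.963 of A375+DMSO in A375+VEM (95% interval 0.881 to 1.05) and at 0.736 of A375P (95% interval 0.678 to 0.800). The TPM of ADA over that of ADK was 1.69 with vemurafenib (95% interval 1.47 to 1.94), 1.60 with DMSO (95% interval 1.42 to 1.81), 1.21 in the resistant strain (95% interval 1.09 to 1.35) and 0.334 in the parental line (95% interval 0.278 to 0.398). Transcripts of the deaminase thus exceeded those of the kinase in each library but A375P.

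The AMP deaminases differed in level and in range. Chromosome 1 holds AMPD2 at 110162435 to 110174677 (plus strand). For AMPD2 the parental line had 1294 reads (31.6 TPM), the resistant strain 1552 (42.0 TPM), the DMSO culture 1814 (47.5 TPM) and the acute vemurafenib culture 1664 (43.9 TPM). It was lowest in A375P, and A375+DMSO against it had a log2 ratio of 0.586, just past the limit and within it under both other scalings (0.49 and 0.51) and a pseudocount of 1 (0.57). The other AMPD2 ratios were within 1.5-fold.

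Chromosome 11 holds AMPD3 at 10471868 to 10529126 (plus strand). For AMPD3 the parental line had 90 reads (1.86 TPM), the resistant strain 130 (2.97 TPM), the DMSO culture 63 (1.39 TPM) and the acute vemurafenib culture 17 (0.38 TPM). It was highest in A375R and lowest in A375+VEM whichever library without the drug was the control. A375R was 1.60-fold higher than A375P (95% interval 1.21 to 2.12) and 2.13-fold higher than A375+DMSO (95% interval 1.57 to 2.93). The first of these was within the limit with a pseudocount of 1 (log2 ratio 0.47) or a median ratio of 1 (0.55). A375+VEM was at 0.272 of A375+DMSO (95% interval 0.149 to 0.470) and at 0.204 of A375P (95% interval 0.114 to 0.345). A375P and A375+DMSO themselves differed by less than the counting error, at a ratio of 0.750 (95% interval 0.535 to 1.05). The TPM of AMPD2 was 14.2 times that of AMPD3 in A375R (95% interval 11.8 to 17.1) and 17.1 times in A375P (95% interval 13.8 to 21.4). It was 34.1 times that of AMPD3 in A375+DMSO (95% interval 26.6 to 44.6) and 116 times in A375+VEM (95% interval 72.3 to 200).

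ATIC was the most abundant of the 10 in A375P. Chromosome 2 holds ATIC at 216176679 to 216214496 (plus strand). For ATIC the parental line had 4361 reads (244 TPM), the resistant strain 2462 (153 TPM), the DMSO culture 2308 (138 TPM) and the acute vemurafenib culture 961 (58.1 TPM). A375P stood highest, A375R and A375+DMSO lay close together, and A375+VEM was lowest. A375+VEM was at 0.419 of A375+DMSO (95% interval 0.389 to 0.452) and at 0.238 of A375P (95% interval 0.222 to 0.255). The log2 ratio to A375+DMSO of -1.25 was smaller than that of 91.7% of the genes compared. A375R was at 0.625 of A375P (95% interval 0.595 to 0.657), but A375+DMSO was at 0.567 of A375P too (95% interval 0.539 to 0.597), and A375R was at 1.10 of A375+DMSO (95% interval 1.04 to 1.17). These values refer to the gene whose promoter with the E-box is printed above.

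Chromosome 22 holds ADSL at 40742504 to 40762752 (plus strand). For ADSL the parental line had 1225 reads (80.7 TPM), the resistant strain 1390 (101 TPM), the DMSO culture 1617 (114 TPM) and the acute vemurafenib culture 934 (66.4 TPM). A375+VEM was lowest, at 0.582 of A375+DMSO (95% interval 0.536 to 0.631) and at 0.823 of A375P (95% interval 0.755 to 0.897), where it was within 1.5-fold. Chromosome 16 holds APRT at 88875877 to 88878342 (minus strand). For APRT the parental line had 1394 reads (202 TPM), the resistant strain 1099 (176 TPM), the DMSO culture 1321 (205 TPM) and the acute vemurafenib culture 895 (140 TPM). It was also lowest in A375+VEM, at 0.682 of A375+DMSO (95% interval 0.626 to 0.743), within the limit but past it under both other scalings (log2 ratios of -0.66 and -0.70). The summed TPM of the 10 genes was 409 with acute vemurafenib and between 608 and 659 in the other 3 libraries. APRT, ADSL and ATIC, the highest of the 10, weigh most in this sum. The summed receptor TPM was 44.7 in A375+VEM and 46.1 in A375+DMSO.

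**Figure D3:**
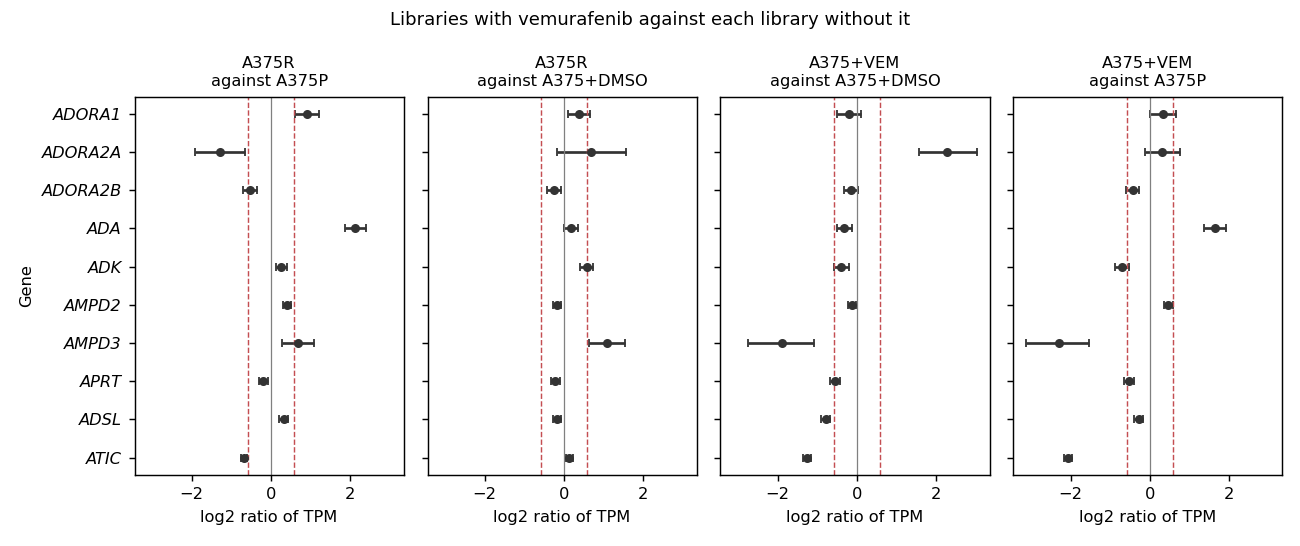
Log2 ratio of TPM (without the 0.1) of the 10 genes in A375R and A375+VEM against each library without vemurafenib, with exact 95% intervals on the reads, a grey line at 0 and dashed lines at 1.5-fold. AMPD3 is past the limit in all 4 panels, to the right in A375R and to the left in A375+VEM, and ATIC is left of it in 3 of them.

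In the resistant pair, A375R against A375P, 3 of the 10 genes were higher (ADORA1, ADA and AMPD3) and 2 lower (ADORA2A and ATIC). Past 1.5-fold either way were thus 5 of 10, against 44.3% of all 1689 genes compared (26.8% higher and 17.5% lower), and their median log2 ratio was 0.30, against 0.10 for all genes. In the acute pair, A375+VEM against A375+DMSO, ADORA2A was higher and AMPD3, ADSL and ATIC were lower, which is 4 of 10 against 46.2% of 1784 genes (26.5% higher and 19.7% lower). Of the 10, 9 had a log2 ratio below 0 in this pair, against 43.2% of all genes, and the median was -0.35, against 0.11 for all genes. The counts past 1.5-fold in these pairs are near the shares of all genes.

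The libraries without vemurafenib also differed. In A375+DMSO against A375P, ADA and AMPD2 were higher and ADORA2A and ATIC lower, 4 of 10 against 45.7% of 1720 genes (26.8% higher and 18.9% lower). With A375+DMSO as the control of A375R, ADORA2A and AMPD3 were higher, 2 of 10 against 20.5% of 1702 genes (10.5% higher and 9.99% lower). With A375P as the control of A375+VEM, ADA was higher and ADK, AMPD3 and ATIC lower, 4 of 10 against 62.1% of 1782 genes (36.9% higher and 25.3% lower). These comparisons share libraries with those above. Past 1.5-fold in the same direction against both controls were AMPD3 in A375R, and AMPD3 and ATIC in A375+VEM. Over all genes compared this held for 126 of 1652 (7.63%) in A375R and for 619 of 1760 (35.2%) in A375+VEM.

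**Figure D4:**
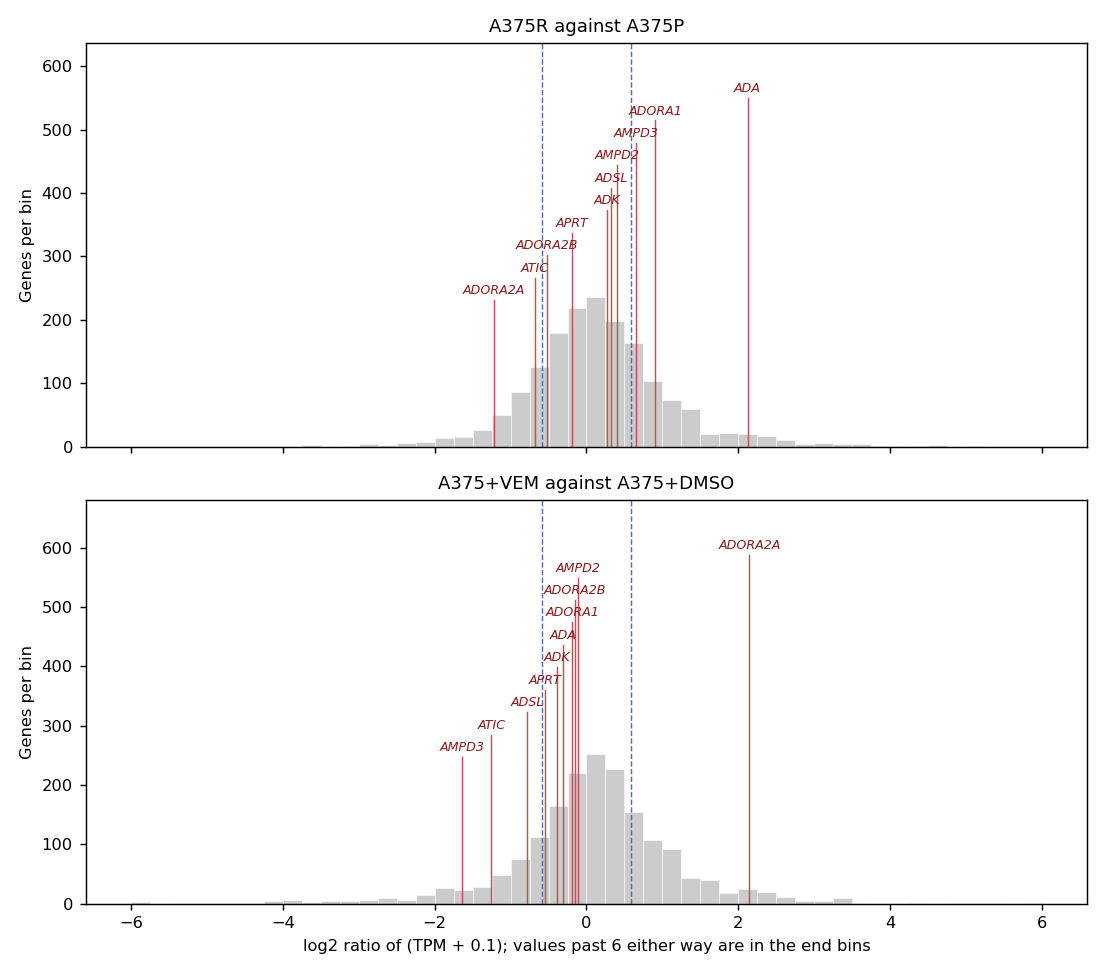
Number of genes per bin of the log2 ratio of (TPM + 0.1) in the resistant pair (top) and the acute pair (bottom), with red lines at the 10 named genes and dashed lines at 1.5-fold. ADA at 2.12 lies in the upper tail of the resistant pair, ADORA2A at 2.15 in that of the acute pair, and the other 9 are below 0 in the acute pair.

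Other genes of adenosine, AMP and IMP metabolism were taken from a list of 39, of which 17 were found in the table and the others were not analysed here. In the resistant pair 2 of 12 compared were higher (ADSSL1 and AHCYL1), against 26.8% of all genes, and AK4 was among those that were lower. AHCYL1 was at 1.77 of A375P in A375R (95% interval 1.69 to 1.87), but A375+DMSO was at 2.06 of A375P too (95% interval 1.96 to 2.17), and A375R was at 0.860 of A375+DMSO. In the acute pair 5 of 14 were higher (ADSSL1, AK1, AK7, AK8 and AHCYL2) and 2 lower (AK4 and AK6), against 26.5% and 19.7% of all genes, with a median log2 ratio of -0.03. The adenylosuccinate synthases, which act just before ADSL, differed from each other. ADSS had 1634 reads in A375R, 1574 in A375P, 1357 in A375+DMSO and 1002 in A375+VEM, and no ratio in either pair was past 1.5-fold. ADSSL1, the form known from muscle, had 219 reads in A375+VEM, 94 in A375+DMSO, 62 in A375R and 23 in A375P, and A375+VEM was 2.35-fold higher than A375+DMSO (95% interval 1.83 to 3.02). ADSSL1 was also 4.38-fold higher in A375+DMSO than in A375P (95% interval 2.75 to 7.24).

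The adenylate kinases, which pass phosphate between AMP, ADP and ATP, went both ways in the acute pair. AK1, a cytosolic form, was at 2.06 of A375+DMSO in A375+VEM (95% interval 1.88 to 2.27) and at 2.57 of A375P (95% interval 2.32 to 2.84). AK4, a mitochondrial form, was at 0.451 of A375+DMSO in A375+VEM (95% interval 0.399 to 0.509) and at 0.453 in A375R (95% interval 0.401 to 0.512), and against A375P it was at 0.607 and 0.610. AHCYL2, a relative of the enzyme that releases adenosine from S-adenosylhomocysteine, was at 2.12 of A375+DMSO in A375+VEM (95% interval 1.89 to 2.37). AHCY, that enzyme itself, was within 1.5-fold in both pairs.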

How the data were processed

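RNA was sequenced from 4 cultures with 1 library per condition. The authors deposited whole-number read counts and TPM per gene in 1 table. The submitters' processing notes name HISAT2, HISAT, TopHat2, Bowtie2 and hg19, without roles. The counting program and strand setting are not given in the sources used here. The table holds 2864 genes in alphabetical order up to names in CAC, and 1 more row was incomplete and left out. TPM times length over count was 1 constant per library, which scaled the read ratios.

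The 10 genes and the lists of other pathway genes and cell type markers were chosen with earlier results of these data known. The result of 1 listed gene is not reported here. Named were the 10 genes, other genes of the pathway list past 1.5-fold in the resistant or acute pair, and genes set beside them for contrast. Some cell type markers and the genes within 1000 bases of a member were also named. Listed genes past 1.5-fold only in other comparisons, and some markers past it, were not named. With 1 library per condition no test was run. The steps were tested on simulated data. Alternatives were pseudocounts of 1 and 0.01, no filter, a TPM of at least 5, 2-fold, scaling to a median ratio of 1, TMM-scaled CPM, and A375P as the control of A375+VEM. Python 3.11.15, numpy 2.4.6, pandas 2.3.3, scipy 1.17.1, matplotlib 3.10.9, R 4.3.3 and edgeR 4.0.16 (TMM factors) were used.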

Additional observations from a re-analysis of the deposited data

Results flagged for a closer look

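ADORA2A and AMPD3 went opposite ways between the resistant and the acute pair, each past 1.5-fold one way in A375R and the other way in A375+VEM. This contrast was not tested. ADORA2A had a log2 ratio of (TPM + 0.1) of -1.21 in A375R against A375P and of 2.15 in A375+VEM against A375+DMSO. With the controls exchanged it was at 0.62 in A375R and 0.31 in A375+VEM, so the contrast for ADORA2A depends on the control. AMPD3 had a log2 ratio of 0.65 in A375R against A375P and of -1.64 in A375+VEM against A375+DMSO. With the controls exchanged it was at 1.04 and -2.03, again in opposite directions. Of 1656 genes compared in both pairs, 200 (12.1%) were past 1.5-fold in opposite directions.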

How the results depend on the processing

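No paired analysis was possible because each condition has 1 library, and for the same reason no library could be left out. The number of the 10 genes past the limit was 5 in the resistant pair, 4 in the acute pair, 4 in A375+DMSO against A375P and 2 in A375R against A375+DMSO. At a TPM of at least 5, which removes low genes by construction, it was 3, 2, 3 and 0. At a threshold of 2-fold, stricter by construction, it was 2, 3, 2 and 1. With a pseudocount of 1, A375R against A375+DMSO had 1, AMPD3, and AMPD3 was at 0.47 against A375P, within the limit. Under a median ratio of 1 AMPD3 was at 0.55 there, and ADORA2B at -0.62 was past it. Under that scaling APRT was past the limit in the acute pair at -0.66, and AMPD2 was within it in A375+DMSO against A375P at 0.49. TMM scaling moved the median of all genes in the acute pair by -0.15. The sign of APRT in A375+DMSO against A375P changed under both scalings, from 0.02 to -0.07 and -0.05. With A375P as the control of A375+VEM, 4 genes were past the limit, of which AMPD3 and ATIC were also past it against A375+DMSO. The filters and the 2-fold threshold cannot move a log2 ratio of a single gene. Under the other alternatives, 150 of 170 such ratios stayed within the 95% counting interval. With A375P as the control of A375+VEM, however, 8 of the 10 ratios left it. No ratio that was past the limit before a change of setting reversed its sign, but some within the limit did. Against A375P in place of A375+DMSO, A375+VEM was at 1.63 for ADA, in place of -0.31, and at 0.33 for ADORA1 and 0.47 for AMPD2, in place of -0.19 and -0.11. The 17 to 130 reads of AMPD3 and 20 to 96 of ADORA2A limit their precision. A ratio between single libraries includes any difference of culture, and these cannot be told apart from the conditions.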
